A study of Mus musculus with 9 samples.

Results

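The mitochondrial ribosomal protein genes were described across RNA sequencing libraries of DC2.4, an established mouse dendritic cell line. Their members are the genes of the deposited table whose name starts with Mrpl or Mrps followed by a digit, 78 of 21959 genes, with 49 Mrpl and 29 Mrps names. The 9 libraries fall into groups of 3 named OMVSSDC, ZJDC and PBSDC. All are DC2.4 cells and no genetic change is given. The study's stated interest is the immune effect of engineered extracellular vesicles on these cells. Neither OMVSS nor ZJ is spelled out in the labels, and they do not give the vesicle each group received, its dose or its time. PBSDC serves as the control here, since PBS is the usual short form of phosphate-buffered saline. No label says that the 3 libraries of a group are separate cultures, so p-values measure only the spread between libraries, which may be technical.

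Mitochondria carry their own ribosome, the mitoribosome, which translates the few mRNAs of the mitochondrial genome, all of which encode parts of the oxidative phosphorylation complexes. Its RNAs are transcribed inside the organelle, while its proteins are encoded in the nucleus, made in the cytosol and imported. Some of these proteins have counterparts in every ribosome or in bacterial ribosomes, and others are found in mitoribosomes alone. In dendritic cells and macrophages, mitochondrial metabolism is known to be remodelled during activation by microbial products.

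The name is not an exact guide to the subunit. Mrps18a and Mrps30 are parts of the large subunit despite their names, and Mrps36 is a component of the 2-oxoglutarate dehydrogenase complex and not of the mitoribosome. By known position the members are 51 large subunit proteins, 26 small subunit proteins and Mrps36. Of the 78, 77 passed the filter on low counts. Mrpl53 was listed at 0 counts in all 9 libraries. Its annotated span shares 900 bases on the same strand with another gene, Gm42688, and the sources used here do not give how reads shared by 2 genes were counted.

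Library totals ran between 12784931 and 18388959 counts, of which the members took 0.253% to 0.305%. The dendritic identity of the line was partly visible: 10 of 13 dendritic and myeloid markers had a mean of at least 10 counts, and Flt3, H2-Ab1 and Ciita did not. Summed, these markers reached 2454 to 2504 CPM in OMVSSDC, 2438 to 2460 CPM in ZJDC and 2974 to 3001 CPM in PBSDC, where CPM is a count scaled to a common library total. The sum hides moves both ways. In all OMVSSDC and ZJDC libraries, Spi1, Itgam and Lyz2 lay below every PBSDC library. Ptprc, Itgax, Fcer1g, Cd86 and Zbtb46 lay above every PBSDC library, and Tyrobp and Irf8 overlapped with PBSDC. Traces of 9 heart, muscle and brain markers, 3 of them with a mean of at least 10 counts, summed to 3.24 to 13.1 CPM in OMVSSDC, 11.8 to 15.9 CPM in ZJDC and 27.5 to 29.4 CPM in PBSDC. Those of 6 fibroblast and endothelial markers summed to 10.3 to 24.0 CPM, 14.3 to 17.6 CPM and 26.3 to 28.9 CPM in the same groups. Within OMVSSDC, each marker of these lists of traces except Gfap and Nppa was highest in OMVSSDC 3. Tnnt2, for example, had 2.24, 2.46 and 6.63 CPM in OMVSSDC 1, 2 and 3. Epithelial, lymphoid and granulocyte or erythroid lists had no marker at a mean of 10 counts, though OMVSSDC 1 held 45 counts of Hbb-bs and 55 of Hba-a1. The part of these traces in the results was not tested. Libraries OMVSSDC 1 and 2 stood apart from OMVSSDC 3. The chi-square per degree of freedom was 1.87 between them and 61.2 and 64.5 against OMVSSDC 3, while other pairs within a group gave 2.54 to 8.94 and OMVSSDC 3 against ZJDC libraries gave 7.61 to 10.6. Results for OMVSSDC are therefore given also within the 7 libraries without OMVSSDC 1 and 2, where OMVSSDC is a single library whose spread is assumed to equal that of the other groups.

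Per gene length, the members were not equally abundant. FPKM, the count divided by gene length and by the library total, averaged 53.4 for Mrpl12, the highest member, and 0.740 for Mrpl33, the lowest member with counts. The middle member stood at 11.5 FPKM, and 60 of the 77 lay between 5 and 30 FPKM. Mrpl12 is a protein of the flexible stalk of the large subunit, where translation factors dock. Its FPKM averaged 49.4 ± 6.55 in OMVSSDC, 45.1 ± 1.34 in ZJDC and 65.9 ± 1.96 in PBSDC (SD, n = 3 each). Mrps15, a conserved small subunit protein, followed at a mean of 46.8 FPKM and Mrpl2, a conserved protein near the peptidyl transferase centre, at 34.3 FPKM. Mrpl45, which lies at the tunnel exit near the inner membrane, averaged 30.7 FPKM, and Mrpl38, a mitochondria-specific protein of the central protuberance, averaged 30.4 FPKM. Mrpl33 has a long annotated length of 7326 bases in the table and overlaps the gene Rbks on the opposite strand, so its FPKM is uncertain.

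**Figure D1:**
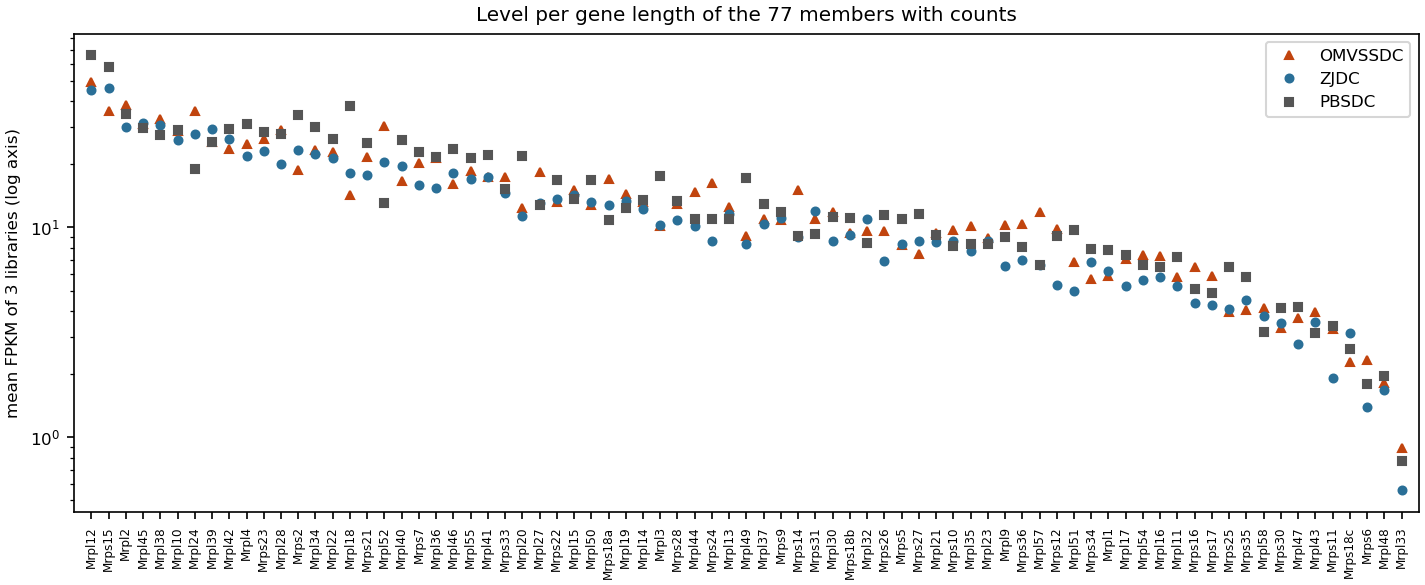
Mean FPKM (vertical log axis) of the 77 members with counts, ordered along the horizontal axis by their mean over all 9 libraries; triangles are OMVSSDC, circles ZJDC and squares PBSDC, each the mean of 3 libraries. The members span 53.4 FPKM (Mrpl12) to 0.740 FPKM (Mrpl33), and the squares of PBSDC lie above the other marks for many members.

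Members called the same way in both comparisons with PBSDC numbered 30. Of these, 8 have a single start listed by RefSeq (build GRCm38.p6) and no exon annotated by GENCODE in the 100 bases before it. The stretches of 3 of these 8 genes are shown: Mrpl20 and Mrps22, lower in both comparisons below, and Mrpl52, higher in both. Only 2 of the 8 stretches, those of Mrpl20 and Mrps22, hold any of the 4 motifs searched. The 3 shown therefore do not stand for the rest. Capitals mark the palindromic E-box CACGTG, bound by Myc and other basic helix-loop-helix factors, in Mrpl20, and CCGGAAGT, the core bound by ETS factors such as GABP, in Mrps22. The Mrpl52 stretch holds none of the 4 motifs searched, and CCGGAAGT lies, on the other strand, just past it in the longer window that was searched. The stretches are chr4:155802778-155802877 on the plus strand, chr9:98601680-98601779 on the minus strand and chr14:54426809-54426908 on the plus strand, read 5′ to 3′ along each gene.
Mrpl20: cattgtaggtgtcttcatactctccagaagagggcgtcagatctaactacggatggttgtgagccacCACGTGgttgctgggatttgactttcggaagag
Mrps22: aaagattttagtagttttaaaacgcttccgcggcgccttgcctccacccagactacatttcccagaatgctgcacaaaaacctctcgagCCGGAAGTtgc
Mrpl52: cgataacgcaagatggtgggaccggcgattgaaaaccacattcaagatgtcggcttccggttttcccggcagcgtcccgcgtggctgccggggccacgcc

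The search covered both strands of the RefSeq windows from 250 bases before to 50 bases after each start, of which 75 belong to 69 of the 78 members. A gene was counted once, whichever of its windows held the letters. The NRF1 motif, a palindromic site of the nuclear respiratory factor NRF1, was in 18.8% of these members and in 5.19% of all 27025 genes with windows. All genes with windows include many that were not tested here. They were not matched to the members by level or GC content. CCGGAAGT was in 17.4% of the members, against 4.31% of all genes, and AAGATGGC, bound by YY1, in 17.4%, against 3.19%. CACGTG was in 7.25% of the members, against 8.09% of all genes. Of the 26 members with windows that were lower in both comparisons, 3 held the NRF1 letters, 5 the ETS letters, 3 the YY1 letters and 2 the E-box. Of the 23 called in neither, 5 held the NRF1 letters, 3 the ETS letters, 3 the YY1 letters and 2 the E-box. A match is a run of letters and shows no binding.

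Against PBSDC, most members that changed in OMVSSDC were lower. The quasi-likelihood test called 31 of 77 members lower and 5 higher at an adjusted p under 0.05, which is 40.3% and 6.49%. Over all 11568 tested genes the test called 30.2% lower and 33.4% higher, 63.6% in either direction against 46.8% of members, so lower calls were somewhat more frequent among members than in the background and higher calls were rarer. The members' median log2 fold change was -0.17, against 0.05 for all genes, and single members ranged between -1.54 and 1.08. Of the 31 lower members, 18 fell by less than 1.5-fold. Values of the groups did not overlap for 42 members, 54.5%, against 65.7% of all genes. With library size alone as the scaling, the split was 14 higher to 23 lower (40.4% and 24.4% of all genes) and the median -0.04, while the median of all genes moved to 0.18. The number called higher was 3 without OMVSSDC 1, OMVSSDC 2, PBSDC 1 or PBSDC 2, and 18 without OMVSSDC 3, where 33 were lower (39.0% and 36.0% of all genes higher and lower). With trends of gene length and GC content removed, 6 were higher and 40 lower, beside 33.0% and 32.8% of all genes. Within the 7 libraries, 45 members were lower and 3 higher (31.3% and 30.7% of all genes). In bulk RNA, fewer cells of a type and less RNA per cell cannot be told apart.

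Mrpl18, a conserved protein of the central protuberance of the large subunit, fell the most. It had 16.8, 18.8 and 21.5 CPM in OMVSSDC, against 57.6, 54.5 and 53.6 CPM in PBSDC. All OMVSSDC libraries lay below all PBSDC libraries, and its log2 fold change was -1.54 (SE 0.0964, adjusted p = 5.79e-07). Its span on chromosome 17, 13130236 to 13135232 on the minus strand in the table's own coordinates (build not given there), overlaps Tcp1 by 645 bases on the opposite strand. Tcp1, a subunit of the cytosolic chaperonin, was lower too, by -0.76 on the log2 scale.

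Mrpl49, a mitochondria-specific large subunit protein, had 18.3, 16.8 and 13.9 CPM in OMVSSDC, against 34.2, 32.7 and 33.9 CPM in PBSDC. The groups did not overlap (log2 fold change -1.04, SE 0.113, adjusted p = 2.40e-05). Mrps2, a conserved protein between the head and body of the small subunit, had 48.0, 45.3 and 63.9 CPM in OMVSSDC, against 110 (replicate 1), 101 and 102 CPM in PBSDC, a change of -0.998 on the log2 scale (SE 0.115, adjusted p = 3.61e-05). OMVSSDC 3 was the highest of its group and still below every PBSDC library.

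Mrpl20, a bacterial-type protein of the large subunit whose promoter stretch is shown above, had 20.6, 20.6 and 17.5 CPM in OMVSSDC, against 38.8, 34.8 and 40.8 CPM in PBSDC. Its log2 fold change was -0.96 (SE 0.105, adjusted p = 2.48e-05), and the groups did not overlap. Mrpl3, a conserved protein that reaches towards the peptidyl transferase centre, had 68.0, 69.9 and 56.4 CPM in OMVSSDC, against 118, 125 and 125 CPM in PBSDC (log2 fold change -0.92, SE 0.0829, adjusted p = 6.41e-06). Here too every OMVSSDC library was below every PBSDC library. The other members with the largest falls were Mrps25, a mitochondria-specific small subunit protein (-0.84), Mrps15 (-0.81) and Mrpl40 (-0.77), a mitochondria-specific protein of the central protuberance. Each of these 8 was called in every fit that left out 1 library and within the 7 libraries. Mrpl12, the most abundant member, fell by 0.55 (SE 0.0790, adjusted p = 0.000172), with 75.5, 77.4 and 63.8 CPM in OMVSSDC, against 103, 105 and 109 CPM in PBSDC.

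Of the 5 members that were higher, 3 had groups that did not overlap. Mrpl52, a mitochondria-specific protein of the central protuberance, had 39.2, 34.5 and 22.8 CPM in OMVSSDC, against 12.7, 14.95 and 17.96 CPM in PBSDC. OMVSSDC 3 lay well below the other libraries of its group, and the log2 fold change of 1.08 (SE 0.193, adjusted p = 0.000707) was 0.59 within the 7 libraries. Mrpl24, a conserved protein at the rim of the exit tunnel, had 83.5, 81.9 and 65.5 CPM in OMVSSDC, against 46.8, 46.2 and 41.7 CPM in PBSDC, a rise of 0.78 (SE 0.0989, adjusted p = 7.14e-05). Mrps18a, a paralogue of bacterial S18 built into the large subunit, had 62.9, 67.4 and 48.3 CPM in OMVSSDC, against 41.6, 41.1 and 42.7 CPM in PBSDC. Its rise of 0.51 (SE 0.111, adjusted p = 0.00241) was 0.20 within the 7 libraries (adjusted p = 0.0594).

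The other higher members, named after their values were seen, were Mrpl57 and Mrpl27, which follow the division within OMVSSDC. Mrpl57, a mitochondria-specific large subunit protein, had 37.7, 42.3 and 20.0 CPM in OMVSSDC, against 20.0, 19.2 and 22.4 CPM in PBSDC. OMVSSDC 3 lay within the PBSDC range, and the change of 0.70 (adjusted p = 0.0245) was -0.04 within the 7 libraries. Mrpl27, a bacterial-type protein next to the peptidyl transferase centre, had 20.1, 17.99 and 13.5 CPM in OMVSSDC, against 13.5, 13.0 and 13.2 CPM in PBSDC. Its change of 0.38 (adjusted p = 0.0380) was 0.02 within the 7 libraries. Mrpl57 was not called without OMVSSDC 1, OMVSSDC 2, PBSDC 1 or PBSDC 2, and Mrpl27 without any of these, PBSDC 3, ZJDC 2 or ZJDC 3, with adjusted p-values of up to 0.108 for Mrpl57 and 0.155 for Mrpl27 over these fits.

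**Figure D2:**
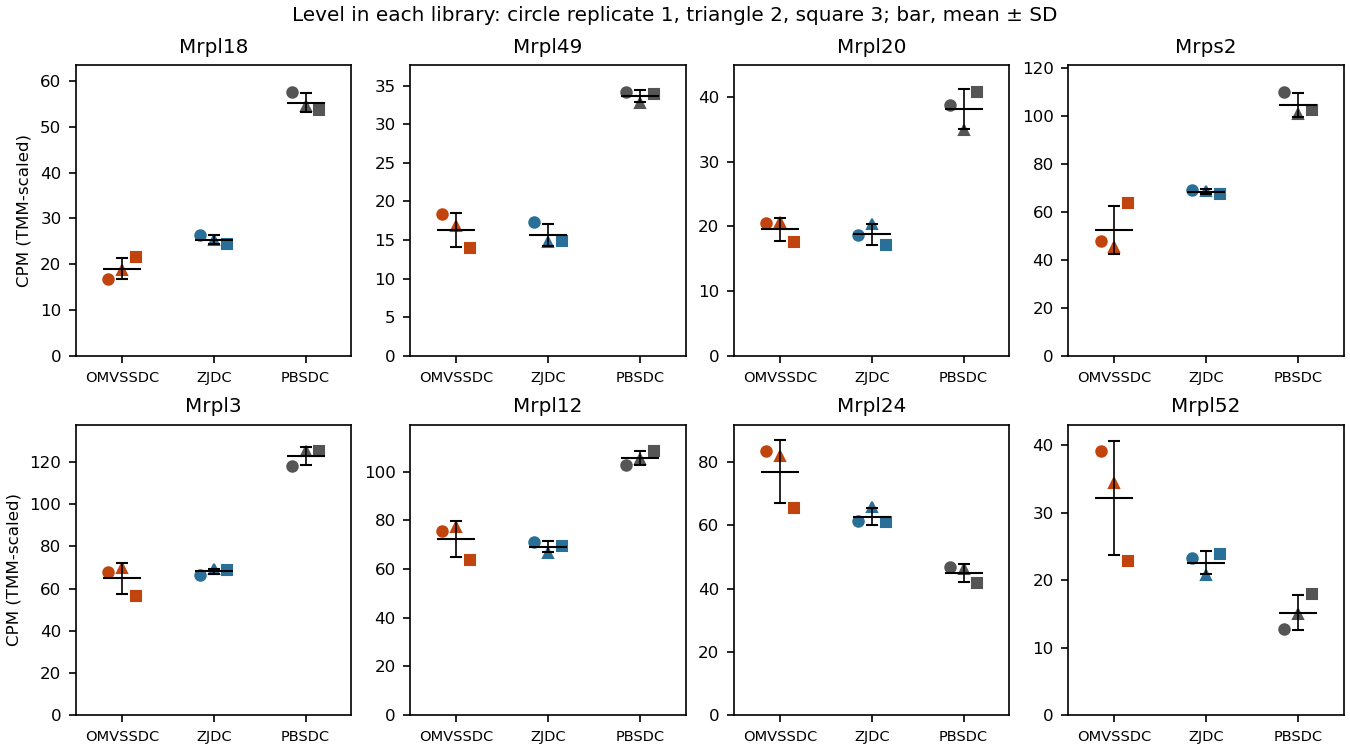
CPM (vertical axes, each starting at 0) of 8 members in every library of OMVSSDC, ZJDC and PBSDC; circles, triangles and squares are replicates 1, 2 and 3, and the bar is the mean ± SD of 3 libraries. Mrpl18, Mrpl49, Mrpl20, Mrps2, Mrpl3 and Mrpl12 lie below PBSDC in every library of the other groups, and Mrpl24 and Mrpl52 lie above it.

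In ZJDC, still more of the changed members were lower. The test called 39 of 77 members lower and 3 higher, 50.6% and 3.9%, where it called 27.1% of all tested genes lower and 27.6% higher. In either direction these were 54.5% of members and 54.7% of all genes, so the members stood out by direction and not by how many were called. The median member stood at -0.37, against 0.01 for all genes. Values did not overlap for 56 members, 72.7%, close to the 72.2% of all genes. Most changes were small: 27 of the 39 lower members fell by less than 1.5-fold, and 4 members changed by over 2-fold. The number called higher was 6 without OMVSSDC 3, with 50 lower (35.2% and 34.9% of all genes higher and lower), and 1 without ZJDC 1. Within the 7 libraries 5 were higher and 48 lower, beside 34.2% and 34.1% of all genes. With library size alone 5 were higher and 30 lower, beside 31.4% and 23.5% of all genes, and with length and GC trends removed 4 and 35, beside 28.7% and 29.3%.

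The members with the largest falls were again Mrpl18, Mrpl49 and Mrpl20, against the same PBSDC libraries as in the comparison above. Mrpl18 had 26.4, 25.2 and 24.4 CPM in ZJDC, below every PBSDC library (log2 fold change -1.12, SE 0.0943, adjusted p = 5.94e-06). Mrpl49 had 17.4, 14.8 and 14.9 CPM in ZJDC, also without overlap (-1.10, SE 0.113, adjusted p = 2.38e-05). Mrpl20 had 18.7, 20.4 and 17.2 CPM in ZJDC, a change of -1.03 (SE 0.105, adjusted p = 2.33e-05). The ZJDC libraries of these genes lay close together.

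Mrpl51, a mitochondria-specific large subunit protein, had 21.8, 17.1 and 21.3 CPM in ZJDC, against 43.1, 39.7 and 39.8 CPM in PBSDC, a fall of 1.02 on the log2 scale (SE 0.147, adjusted p = 0.000226). In OMVSSDC it had 28.6, 30.1 and 20.4 CPM and a change of -0.63. Mrpl3 fell by 0.85, with 66.6, 69.0 and 68.8 CPM in ZJDC. Among small subunit proteins, Mrps12, which lines the decoding centre, had 4.91, 5.09 and 6.61 CPM in ZJDC, against 8.14, 10.4 and 11.0 CPM in PBSDC. Its log2 fold change was -0.82 (SE 0.225, adjusted p = 0.0106), while in OMVSSDC it was -0.02. For this gene OMVSSDC 3 lay below every PBSDC library, and the other OMVSSDC libraries did not (values below). Mrps26, a mitochondria-specific protein, fell by 0.80 (adjusted p = 0.00285). Mrps11, a conserved protein of the platform, had 4.29, 4.15 and 4.03 CPM in ZJDC, against 7.90, 7.20 and 7.89 CPM in PBSDC, a change of -0.88 (adjusted p = 0.0170). The call on Mrps11 was lost without PBSDC 1 (adjusted p = 0.0503) or ZJDC 3 (0.0531), and its span overlaps Mrpl46 by 413 bases on the opposite strand.

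Mrpl52, Mrpl24 and Mrps31 were the members that were higher in ZJDC. Mrpl24 had 61.3, 65.8 and 60.9 CPM in ZJDC, above the 46.8, 46.2 and 41.7 CPM of PBSDC, a rise of 0.48 (SE 0.0990, adjusted p = 0.00224). Mrpl52 had 23.2, 20.7 and 23.9 CPM in ZJDC, against 12.7, 14.95 and 17.96 CPM in PBSDC (log2 fold change 0.58, SE 0.195, adjusted p = 0.0282). Its call was lost without PBSDC 1 (adjusted p = 0.111), PBSDC 2 (0.0803), ZJDC 1 (0.07235) or ZJDC 3 (0.08301). Mrps31, a mitochondria-specific protein of the small subunit head, had 43.1, 37.9 and 37.4 CPM in ZJDC, against 33.0, 31.8 and 30.7 CPM in PBSDC. The change of 0.31 (SE 0.0902, adjusted p = 0.0141) was not called without PBSDC 3 (adjusted p = 0.0558) or ZJDC 1 (0.0678).

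**Figure D3:**
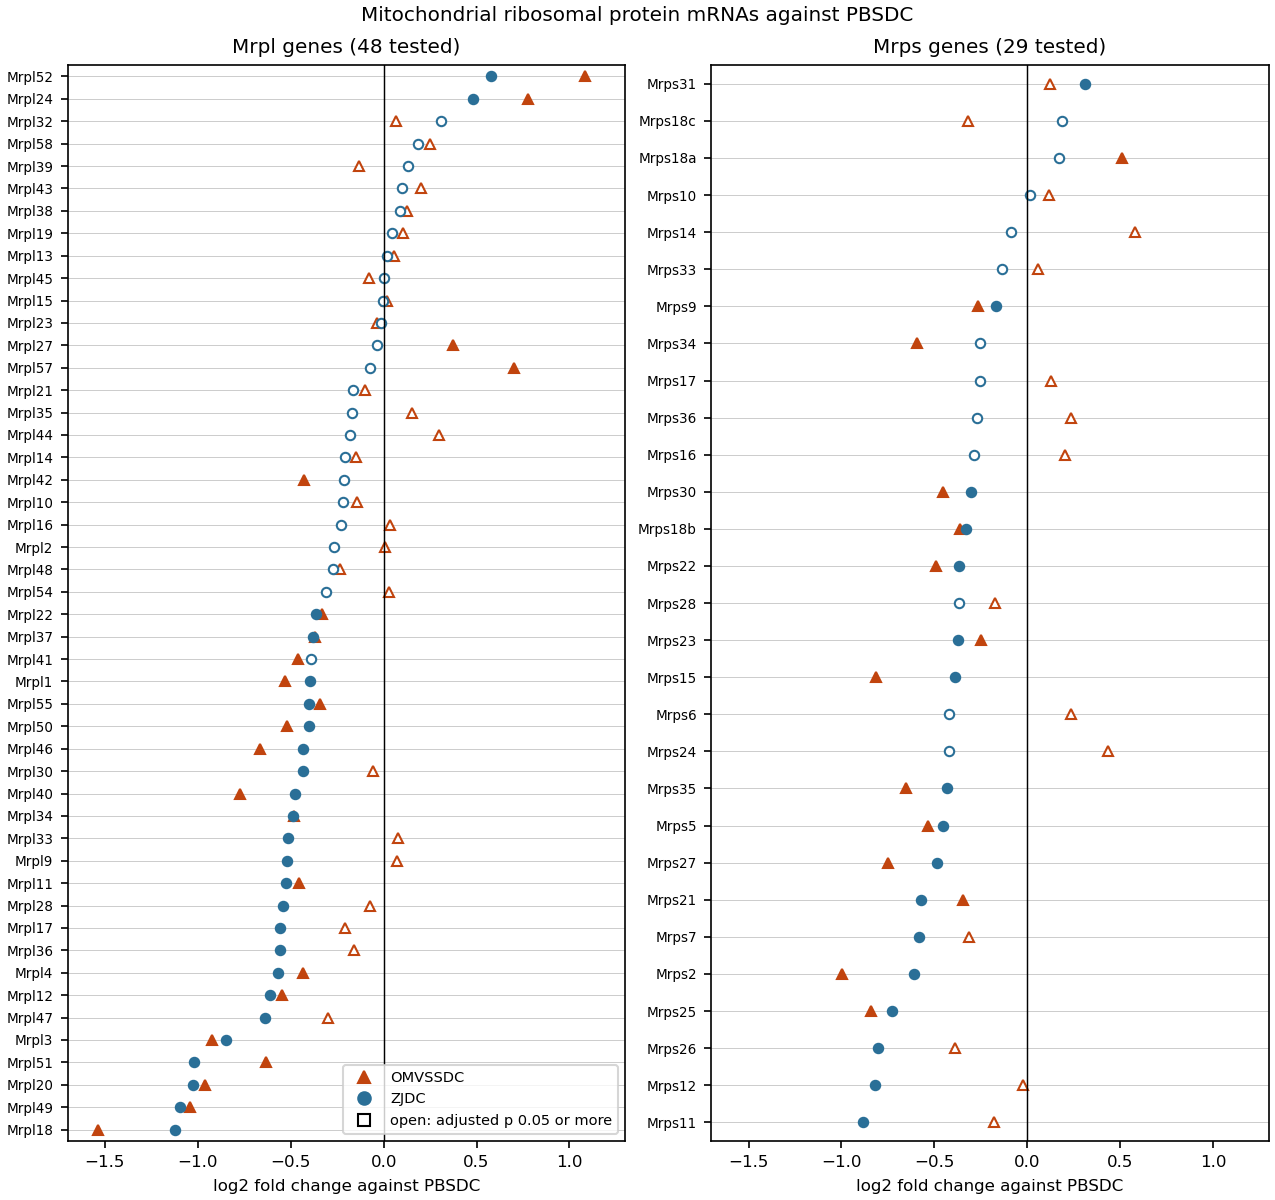
Log2 fold change against PBSDC (horizontal axes) of each tested Mrpl gene (left) and Mrps gene (right), ordered by the value in ZJDC; triangles are OMVSSDC and circles ZJDC, and open marks did not reach an adjusted p under 0.05. Filled marks to the left of 0 number 31 for OMVSSDC and 39 for ZJDC, and to the right 5 and 3; both comparisons use the same PBSDC libraries.

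Set side by side, 28 members were lower and 2, Mrpl24 and Mrpl52, were higher in both comparisons, and 29 were called in neither. These are 36.4%, 2.6% and 37.7% of the 77 members, where 23.5% of all tested genes were lower in both, 24.3% higher in both and 29.5% called in neither. Another 11 were lower in ZJDC alone by the call, Mrps31 was higher in ZJDC alone, and 3 were higher and 3 lower in OMVSSDC alone. In the fit to all 9 libraries, no member, and none of the 11568 genes, was called in opposite directions. The comparisons share their PBSDC libraries, so this agreement is not independent, and a call in one comparison alone does not show that the groups differ. Stable members included Mrpl15, a conserved large subunit protein that was named after its values were seen. It had 119, 123 and 126 CPM in OMVSSDC, 126, 115 and 122 CPM in ZJDC and 121, 124 and 119 CPM in PBSDC. The 95% intervals of its log2 fold changes ran from -0.12 to 0.15 in OMVSSDC and from -0.14 to 0.13 in ZJDC.

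No member was called between OMVSSDC and ZJDC by edgeR, where 0.856% of all genes were called higher and 1.1% lower in OMVSSDC, 1.95% in all. At an unadjusted p under 0.05 there were 29 members, and 31.8% of all genes. DESeq2 called 5 members higher (Mrps12, Mrpl57, Mrpl33, Mrpl9 and Mrps36) and 4 lower (Mrps15, Mrpl18, Mrps2 and Mrpl40) in OMVSSDC, and limma-voom called none. The share of all genes called by DESeq2 was not taken, so its member counts have no background beside them. Values did not overlap for 15 members, 19.5%, against 24.0% of all genes. The median difference was 0.06, and -0.05 within the 7 libraries, where again no member was called (1.18% of all genes higher and 1.79% lower). None was called with library size alone (0.994% and 0.787% of all genes), and 1, Mrpl18, was lower with length and GC trends removed (1.91% and 2.64% of all genes higher and lower). Without OMVSSDC 3, edgeR called 33 members higher and 12 lower, beside 27.6% and 28.0% of all genes, and OMVSSDC then consists of the libraries that stand apart.

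For single members, the interval of the difference was often wide. For Mrpl18 the log2 difference, OMVSSDC minus ZJDC, was -0.41 with a 95% interval between -0.63 and -0.20 (adjusted p = 0.0562), and the groups did not overlap. Mrps15, with 54.4, 52.4 and 68.5 CPM in OMVSSDC and 83.7, 77.2 and 74.6 CPM in ZJDC, differed by -0.43 (interval -0.66 to -0.19, adjusted p = 0.0595). Mrps12, with 11.4, 11.0 and 6.63 CPM in OMVSSDC and 4.91, 5.09 and 6.61 CPM in ZJDC, differed by 0.80 (0.30 to 1.301, adjusted p = 0.0747). For Mrpl49 and Mrpl20 the differences were each 0.06, with intervals from -0.20 to 0.32 and from -0.18 to 0.30. In 45 of the 77 members the interval lay wholly within 1.5-fold in either direction.

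The division within OMVSSDC ran through the members. OMVSSDC 1 and 2 were both above OMVSSDC 3 for 49 members and both below it for 24. The gap exceeded 1.5-fold for 16 members above and for 1 below, which was Mrpl32. These counts were not taken over all genes, so they do not show whether the members differ from the rest. Mrps24, a conserved small subunit protein named after its values were seen, had 28.9 and 29.2 CPM in OMVSSDC 1 and 2 and 9.68 CPM in OMVSSDC 3. In ZJDC it had 9.64, 14.2 and 13.8 CPM and in PBSDC 15.4, 14.5 and 20.4 CPM, so OMVSSDC 1 and 2 lay above all other libraries. Its span overlaps that of Urgcp by 2264 bases on the same strand. Mrps14, another conserved protein of the small subunit, was also named after its values were seen. It had 55.9 and 57.8 CPM in OMVSSDC 1 and 2, against 25.8 CPM in OMVSSDC 3. The other 6 libraries had 27.2 to 32.5 CPM.

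The members' median level relative to the PBSDC mean was -0.09 and -0.09 in OMVSSDC 1 and 2 and -0.39 in OMVSSDC 3 on the log2 scale. It was -0.34, -0.35 and -0.33 in ZJDC and between -0.02 and 0.03 in PBSDC. All 39 members called lower in ZJDC were below every PBSDC library in OMVSSDC 3 also, and 30 of them in OMVSSDC 1 and 2. These 39 were chosen by their calls against the same PBSDC libraries. The matching share of all genes lower in ZJDC was not taken, so these counts do not set the members apart. Members took 0.295%, 0.297% and 0.253% of the counts in OMVSSDC 1, 2 and 3, 0.256%, 0.255% and 0.263% in ZJDC, and 0.305%, 0.298% and 0.303% in PBSDC. Cytoplasmic ribosomal protein genes, 83 rows, split OMVSSDC in the same way: they took 4.10%, 4.01% and 2.81% in OMVSSDC, 2.75% to 2.97% in ZJDC and 2.57% to 2.60% in PBSDC. Across the 77 members, the gap between OMVSSDC 1 and 2 and OMVSSDC 3 had a Spearman rho of -0.18 with gene length and 0.15 with GC content, over genes that share these 3 libraries. The members' median percent coefficient of variation was 14.3 in OMVSSDC, 6.40 in ZJDC and 5.35 in PBSDC.

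**Figure D4:**
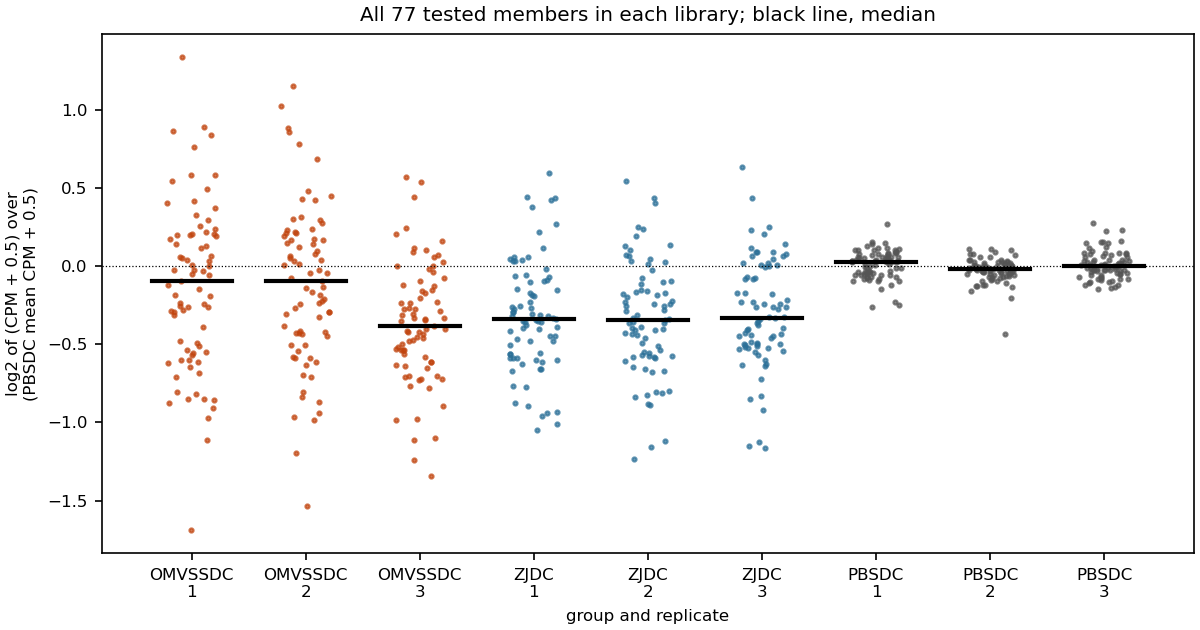
Level of each of the 77 tested members in every library relative to its PBSDC mean (vertical axis, log2 of CPM + 0.5 over mean CPM + 0.5); each point is 1 member and the black line the median of the library. The medians of OMVSSDC 1 and 2 are each -0.09, that of OMVSSDC 3 is -0.39 and those of ZJDC lie between -0.35 and -0.33.

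Both subunits held lower members. In OMVSSDC, 19 of 50 tested large subunit proteins were lower and 5 higher, and 12 of 26 small subunit proteins were lower and none higher. In ZJDC, 24 of 50 large subunit proteins were lower and 2 higher, and 15 of 26 small subunit proteins were lower and 1 higher. The median log2 fold change was -0.14 for the large and -0.29 for the small subunit in OMVSSDC, and -0.31 for the large and -0.38 for the small subunit in ZJDC. The counts in OMVSSDC moved with the libraries and the scaling. Without OMVSSDC 3, 11 large subunit proteins were higher and 20 lower, and 6 small subunit proteins were higher and 13 lower. With library size alone these were 10 and 15 for the large and 3 and 8 for the small subunit. Within the 7 libraries 3 large subunit proteins were higher and 26 lower, and none of the small subunit proteins was higher and 19 were lower. By descent, 16 of 30 mitochondria-specific members, 10 of 27 with counterparts in every ribosome and 4 of 18 of bacterial type were lower in OMVSSDC, with 3, 1 and 1 higher. In ZJDC the lower members were 14 of 30, 15 of 27 and 9 of 18, with 2, 1 and 0 higher. The lists used for these classes hold neither Mrps36 nor Mrpl55. The counts therefore leave out Mrpl55, a large subunit protein that was lower in both comparisons (-0.34 in OMVSSDC and -0.40 in ZJDC). These are counts beside the background shares above, and differences between the classes were not tested.

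By position in the large subunit, 2 of 4 tested proteins of the stalk and its base were lower in each comparison. Mrpl12 is described above. Mrpl11, at the base of the stalk, had 21.5, 16.7 and 15.6 CPM in OMVSSDC, 17.4, 16.8 and 16.8 CPM in ZJDC and 23.0, 23.3 and 27.2 CPM in PBSDC. It fell by 0.45 in OMVSSDC (SE 0.128, adjusted p = 0.0104) and by 0.53 in ZJDC (SE 0.128, adjusted p = 0.00569). Mrpl10, which anchors the Mrpl12 copies, had 50.1, 50.4 and 40.7 CPM in OMVSSDC, 40.8, 40.7 and 52.2 CPM in ZJDC and 50.6, 53.0 and 52.1 CPM in PBSDC. It was called in neither (adjusted p = 0.308 in OMVSSDC and 0.136 in ZJDC). Its fall in ZJDC was called without ZJDC 3 (-0.35, adjusted p = 0.0228) and without OMVSSDC 3 (-0.21, adjusted p = 0.0168). Of 10 central protuberance proteins, 3 were lower and 2 higher in OMVSSDC, and 4 lower and 1 higher in ZJDC. Of 8 exit tunnel proteins, 1 was lower and 1 higher in OMVSSDC, and 3 lower and 1 higher in ZJDC. Of 9 proteins of the small subunit head, 3 were lower in OMVSSDC, and 4 were lower and 1 higher in ZJDC. Of all genes, 30.2% were lower and 33.4% higher in OMVSSDC, and 27.1% lower and 27.6% higher in ZJDC. No position was tested against these shares.

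The 3 paralogues of bacterial S18 did not move together. Mrps18a, in the large subunit, was higher in OMVSSDC as given above and had 0.17 (adjusted p = 0.213) in ZJDC. Mrps18b, in the small subunit, was lower in both. It had 18.3, 20.7 and 17.1 CPM in OMVSSDC, 16.2, 21.4 and 20.0 CPM in ZJDC and 24.95, 22.6 and 24.7 CPM in PBSDC, with changes of -0.36 in OMVSSDC (adjusted p = 0.0236) and -0.33 in ZJDC (adjusted p = 0.0401). These calls were lost in OMVSSDC without OMVSSDC 1, PBSDC 1 or PBSDC 3, with adjusted p-values of up to 0.0722, and in ZJDC without any of PBSDC 1, 2 and 3, ZJDC 1 or ZJDC 3, with values of up to 0.151. Mrps18c, the S18 of the canonical small subunit site, had 1.88, 2.46 and 2.77 CPM in OMVSSDC, 3.67, 3.29 and 3.17 CPM in ZJDC and 3.66, 2.06 and 3.14 CPM in PBSDC. It was called in neither, and its low counts limit what could be seen.

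Mrps30, a large subunit protein despite its name, fell by 0.45 in OMVSSDC (adjusted p = 0.00278) and by 0.30 in ZJDC (adjusted p = 0.0252). The ZJDC call was lost without PBSDC 1 (adjusted p = 0.07798), PBSDC 2 (0.0779), ZJDC 1 (0.0974) or ZJDC 3 (0.0729). Mrpl58, a peptidyl-tRNA hydrolase built into the large subunit, had 14.9, 12.7 and 11.9 CPM in OMVSSDC, 11.4, 14.8 and 11.7 CPM in ZJDC and 11.6, 10.9 and 10.7 CPM in PBSDC. Every OMVSSDC library was above every PBSDC library, but the adjusted p was 0.125. Mrps36, not a mitoribosomal protein, had 0.23 in OMVSSDC (adjusted p = 0.128) and -0.27 in ZJDC (adjusted p = 0.102). Without OMVSSDC 3 it was called in opposite directions, higher in OMVSSDC (0.34, adjusted p = 0.01655) and lower in ZJDC (-0.27, adjusted p = 0.0473).

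Mitoribosomal proteins with other symbols were examined by name. Ptcd3, a pentatricopeptide repeat protein of the small subunit, had 77.1, 86.3 and 89.3 CPM in OMVSSDC, 108, 106 and 105 CPM in ZJDC and 223, 217 and 228 CPM in PBSDC. The groups did not overlap, with log2 fold changes against PBSDC of -1.40 (SE 0.0684, adjusted p = 1.22e-07) in OMVSSDC and -1.07 (SE 0.0676, adjusted p = 9.34e-07) in ZJDC. Between OMVSSDC and ZJDC it differed by -0.33 (adjusted p = 0.0440), a call that was lost when any library other than OMVSSDC 3 was left out (adjusted p = 0.0874 to 0.204). Dap3, a GTP-binding protein of the small subunit, fell by 0.54 in OMVSSDC (adjusted p = 0.00112) and by 0.60 in ZJDC (adjusted p = 0.000753). Aurkaip1, a small subunit protein, had 0.04 in OMVSSDC and -0.33 in ZJDC (adjusted p = 0.0263, lost without PBSDC 1, PBSDC 3, ZJDC 1 or ZJDC 2 with values of up to 0.106). Chchd1, a small subunit protein with a coiled-coil-helix fold, was 0.42 higher in OMVSSDC (adjusted p = 0.0305), but -0.02 within the 7 libraries, and was not called when OMVSSDC 1, OMVSSDC 2 or any PBSDC library was left out (adjusted p of up to 0.1205). Gadd45gip1, a large subunit protein, had 5, 15 and 13 counts in OMVSSDC, 20, 12 and 23 in ZJDC and 17, 9 and 14 in PBSDC, and was called in neither.

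Genes that serve the mitoribosome were mixed. Beside the lists here and in the next paragraph stand the shares of all tested genes. These were 30.2% lower and 33.4% higher in OMVSSDC, and 27.1% lower and 27.6% higher in ZJDC. No list was tested against them. Of 14 mitochondrial translation factors, 8 were lower and 1 higher in OMVSSDC, and 5 lower and 1 higher in ZJDC. Gfm1, an elongation factor that drives translocation, had 92.3, 92.3 and 116 CPM in OMVSSDC, 130 (replicate 1), 120 (replicate 2) and 119 CPM in ZJDC and 193, 191 and 191 CPM in PBSDC, with changes of -0.94 in OMVSSDC (adjusted p = 1.02e-05) and -0.64 in ZJDC (adjusted p = 0.000195). The factor that was higher was Mtif2, which places the initiator tRNA, with 58.8, 57.8 and 60.6 CPM in OMVSSDC, 61.2, 64.6 and 61.0 CPM in ZJDC and 39.6, 37.2 and 29.6 CPM in PBSDC. Its changes were 0.73 in OMVSSDC (adjusted p = 0.000113) and 0.81 in ZJDC (adjusted p = 7.90e-05). Of 27 genes for assembly and rRNA modification, 3 were lower and 5 higher in OMVSSDC, and 9 lower and 3 higher in ZJDC. Among them the RNA-binding protein Fastkd2 fell by 1.03 in OMVSSDC and 0.83 in ZJDC, and the GTPase Noa1 changed by -1.005 in OMVSSDC and -0.74 in ZJDC. Of 20 mitochondrial aminoacyl-tRNA synthetases, 5 were lower and 5 higher in OMVSSDC, and 5 lower and 2 higher in ZJDC, with Cars2 at -0.96 in OMVSSDC and -0.94 in ZJDC and Sars2 at -0.89 in OMVSSDC and -0.80 in ZJDC.

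Of 9 tested genes for insertion into the inner membrane and ribosome docking, 5 were lower and 3 higher in OMVSSDC, and 4 lower and 2 higher in ZJDC. Letm1, an inner membrane ion exchanger, fell by 0.39 in OMVSSDC and 0.38 in ZJDC. Cox18, an insertase, rose by 0.97 in OMVSSDC and 0.64 in ZJDC, and Phb, a prohibitin, fell by 0.74 in OMVSSDC and 1.09 in ZJDC. Of 11 tested regulators of nuclear genes for mitochondria, 7 were lower and none higher in OMVSSDC, and 4 lower and 1 higher in ZJDC. Nrf1, the factor whose letters were searched above, fell by 0.79 in OMVSSDC and by 0.80 in ZJDC. The coactivators Pprc1 and Hcfc1 fell by 0.95 and 0.91 in OMVSSDC, and by 0.45 and 0.55 in ZJDC. Of 16 genes used as a sign of mitochondrial mass, 11 were lower and 2 higher in each comparison. The cristae organiser Immt fell by 0.81 in OMVSSDC and 0.56 in ZJDC, and the chaperonin Hspd1 by 0.55 in OMVSSDC and 0.42 in ZJDC. Of 12 tested mRNAs that the mitoribosome translates, 11 were lower in OMVSSDC and 9 in ZJDC, with none higher. All 13 such mRNAs took 1.81%, 1.86% and 4.44% of the counts in OMVSSDC 1, 2 and 3. They took 4.60% to 5.72% in ZJDC and 6.89% to 7.84% in PBSDC. Cytoplasmic ribosomal protein genes ran otherwise: 3 of 80 were lower and 46 higher in OMVSSDC, and 4 lower and 4 higher in ZJDC. Within the 7 libraries the OMVSSDC count was 15 lower and 19 higher, and the ZJDC count 13 lower and 28 higher.

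**Figure D5:**
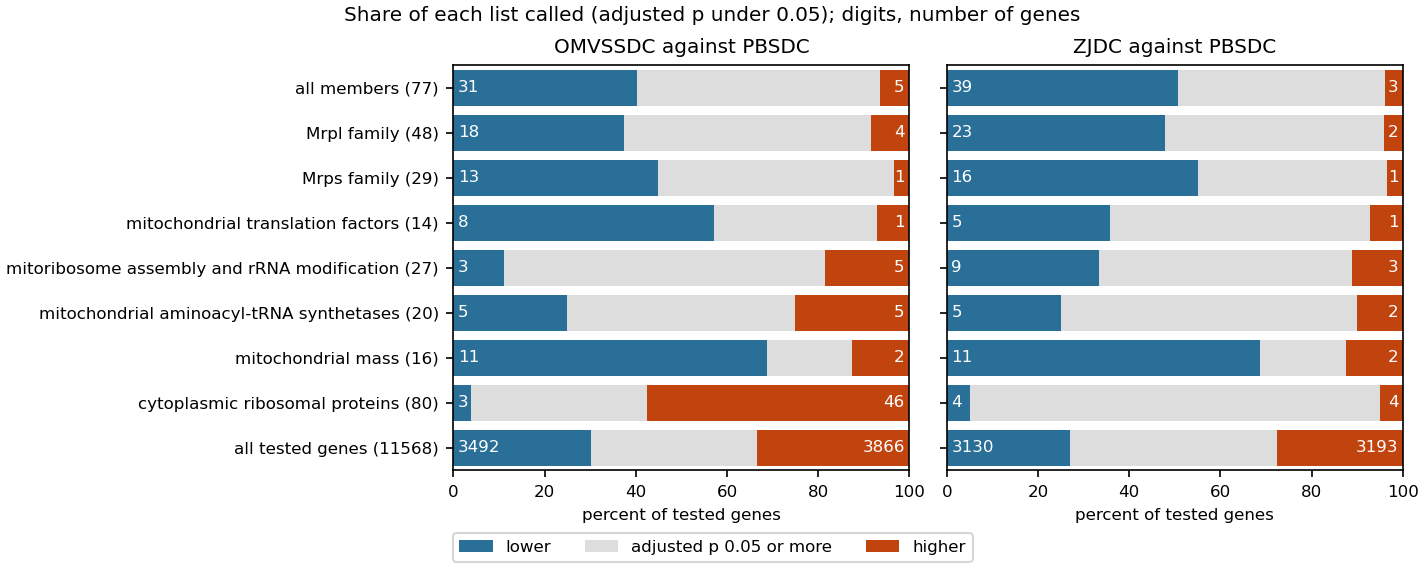
Percent of the tested genes of each list (horizontal axes; number tested in brackets) that were lower (blue, left), not called (grey) or higher (orange, right) in OMVSSDC (left panel) and ZJDC (right panel) against PBSDC; digits give the number of genes. Members were lower 31 and 39 times and higher 5 and 3 times, beside 3492 and 3130 lower and 3866 and 3193 higher of all 11568 tested genes.

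Many members share their start region with another gene. For 23 members a start on the opposite strand lies upstream within 1000 bases, or overlaps the member's own by up to 200 bases, and 22 of these pairs had both genes tested. In OMVSSDC both genes were called in 9 of the 22 pairs, of which 4 were lower together and 5 moved in opposite directions. Over all 683 tested pairs chosen by the same distances, both genes were called in 261, of which 104 were lower together, 53 higher together and 104 opposite. In ZJDC both were called in 6 of the members' pairs, with 5 lower together and 1 opposite, and in 188 of all pairs, with 91 lower together, 31 higher together and 66 opposite. The counts over all pairs changed with the libraries. So did those of the members' pairs, whose share of opposite calls within the 7 libraries was near that of all pairs. Within the 7 libraries both were called in 8 pairs in OMVSSDC, with 5 lower together and 3 opposite, and in 9 in ZJDC, with 6 lower together and 3 opposite. Of the 5 pairs opposite in OMVSSDC, the pair of Mrpl50 was the 1 still called so there. Mrpl51 and Ncapd2, a condensin subunit, have starts 100 bases apart and were lower together: Ncapd2 had -1.57 in OMVSSDC and -1.20 in ZJDC. Mrpl49 and Fau, which encodes a cytoplasmic ribosomal protein fused to a ubiquitin-like domain, have starts 59 bases apart. Mrpl49 was lower in both, while Fau had 0.44 in OMVSSDC (adjusted p = 0.0461) and -0.06 in ZJDC (adjusted p = 0.799). Fau had 276, 274 and 159 CPM in OMVSSDC, against 172, 173 and 179 CPM in PBSDC, so OMVSSDC 3 lay below every PBSDC library. Its change was -0.14 within the 7 libraries (adjusted p = 0.0578) and -0.05 with length and GC trends removed (adjusted p = 0.54). Mrpl50 and the zinc finger gene Zfp189, 83 bases apart, went opposite ways in both comparisons, with Mrpl50 at -0.52 in OMVSSDC and -0.40 in ZJDC and Zfp189 at 0.54 in OMVSSDC and 0.75 in ZJDC. These pairs were named after their values were seen, and the sources used here do not give the strand used in counting, so reads of overlapping genes cannot be told apart. Of the 24 tested members that overlap another gene, 6 were lower and 3 higher in OMVSSDC, and of the 53 that overlap none, 25 were lower and 2 higher. In ZJDC the counts were 11 lower and 1 higher of the 24, and 28 lower and 2 higher of the 53. The all-gene shares were 30.2% lower and 33.4% higher in OMVSSDC and 27.1% lower and 27.6% higher in ZJDC, and the difference between the 24 and the 53 was not tested.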

How the data were processed

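Total RNA of DC2.4 cells was sequenced in 9 libraries, which were grouped by their titles. The submitters' processing notes name fastp 0.22.0, HISAT2 2.1.0 and HTSeq 0.9.1, a read filter, an aligner and a counter. For genome build, annotation, strand setting and reads that match several genes, the sources used here give nothing. The deposited table holds read counts per gene, which the authors left unnormalized, and FPKM, which the authors computed; each of 127564 FPKM values above 0 matched the count divided by length and total within 0.1%. FPKM were used to compare levels between genes only.

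Counts were tested in R 4.3.3 with edgeR 4.0.16: filterByExpr (minimum count 10, minimum total 15) kept 11568 genes, libraries were scaled by TMM, and a robust quasi-likelihood model with the group as its only term was fitted to all 9 libraries (6 residual degrees of freedom). Two-sided p-values were adjusted (Benjamini-Hochberg) across the whole tested table, with calls at an adjusted p under 0.05. Standard errors are the log2 fold change over the square root of F, and intervals use the t distribution. The pipeline was tested on simulated data. A count of 0 allows up to 3 counts, 0.163 to 0.235 CPM by library; such limits cover counting error only.

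Named members are a panel of 10, up to 8 of the largest changes per direction and comparison (5 for OMVSSDC against ZJDC) among called members with a mean of at least 5 CPM and groups that do not overlap, and members highest or lowest by FPKM. From related lists they are the 5 mitoribosomal proteins with other symbols and genes among the 2 with the smallest adjusted p per list; others are marked where named. The members and lists were chosen with earlier results of these data known. Counts over lists are descriptions without a test. Alternatives were RLE scaling and library size alone, no filter or at least 5 CPM in 3 libraries, DESeq2 1.42.0, limma-voom (limma 3.58.1), the replicate number as a block, only the groups compared, each library left out, the 7 libraries, and gene length and GC trends removed. Promoter sequences and starts are RefSeq's (GRCm38.p6); the table's coordinates are of a build it does not name and were not mixed with them.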

Additional observations from a re-analysis of the deposited data

How the results depend on the processing

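The direction of the members' medians against PBSDC was kept in all alternatives run. In OMVSSDC against PBSDC the number higher was 14 with library size alone and 3 within the 7 libraries, and the median -0.41 within the 7 libraries and -0.36 with length and GC trends removed. In ZJDC against PBSDC the number higher was 5 with library size alone, 6 with only the compared groups and 5 within the 7 libraries. In OMVSSDC against ZJDC, DESeq2 called 5 higher and 4 lower, 2 of them, Mrps12 and Mrps36, in the panel of 10, and 1 was lower without the filter and 1 with length and GC trends removed. Shares of all genes were not taken for DESeq2 or without the filter. Leaving out each library gave 3 to 18 higher, 27 to 33 lower and medians of -0.26 to -0.14 in OMVSSDC against PBSDC, and 1 to 6, 29 to 50 and -0.38 to -0.32 in ZJDC against PBSDC. In OMVSSDC against ZJDC it gave 0 to 33, 0 to 12 and 0.04 to 0.14. Named members called ran 14 to 17, 11 to 18 and 0 to 5. Of the calls, 26 of 31 lower and 3 of 5 higher in OMVSSDC, and 28 of 39 lower and 1 of 3 higher in ZJDC, were made in every such fit. Of the called values of genes named by the rule, that of Chchd1 changed sign, to -0.0164 (OMVSSDC against PBSDC, 7 libraries), as did those of Mrpl57 and Fau, outside the rule. The causes were not tested.

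Replicate numbers are shared between groups, but the correlations of same-numbered deviations ran from -0.39 to 0.09, not every library correlated best with its own number, and nothing pairs them. With the replicate block, 4 members were higher and 30 lower in OMVSSDC and 2 and 34 in ZJDC against PBSDC. Depth limits members such as Mrps18c, with 1.88 to 3.67 CPM.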
